A study of Mus musculus with 2 samples.

Results

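The genes described are the 10 that encode the cohesin ring, its loader, its PDS5 regulators and the insulator protein CTCF: Rad21, Smc1a, Smc3, Stag1, Stag2, Nipbl, Mau2, Pds5a, Pds5b and Ctcf. They were chosen by symbol, 10 rows of the 24061 in the deposited read count table, and the set was proposed with the Pc4-OE to control ratios of these same libraries in view. Their ratios are therefore a description and carry no test. The cells were C57BL/6 mouse embryonic stem cells, grown on feeder cells (mouse embryonic fibroblasts, MEF) with the cytokine LIF. One library was labelled control (passages 17 to 23), and the other Pc4-OE (passages 24 to 37), meaning overexpression of Pc4 from a lentivirus that also carries the Venus fluorescent marker. There was 1 library per group, so passage and label cannot be told apart, nor does any value below have a spread between cultures. The study derived 3 overexpressing lines from picked fluorescent colonies, and the labels do not say which of them gave the library, what virus if any the control cells received, or whether feeder cells were taken out. Sub1, the gene that encodes PC4, had 5522 counts in the control library and 2432 counts in the other, a log2 ratio of -1.17, which goes against the label. Counts from the virus insert were not analysed here, and every direction given is that of the labels.

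Cohesin is a ring that holds DNA. SMC1A and SMC3 form its long arms, RAD21 closes the ring, and either STAG1 or STAG2 binds RAD21. NIPBL with its partner MAU2 loads the ring onto chromatin and drives loop extrusion, PDS5A and PDS5B bind RAD21 and regulate release and acetylation of the ring, and CTCF bound to DNA stops the moving ring at loop anchors. The ring also holds sister chromatids together until separase cuts RAD21, and embryonic stem cells are known to depend on cohesin and its loader to keep their identity.

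In the library labelled Pc4-OE, 9 of the 10 genes had lower levels than in the control library, by unequal amounts. A ratio below 1 was also found for 50.7% of the 14213 genes measured and for 60.2% of the 5173 with at least 1000 counts summed, the depth range of these genes. Rad21 stood far below the rest at 2.31-fold lower, Pds5b and Pds5a came next at 1.71-fold and 1.60-fold lower, and Mau2 alone had a ratio above 1. Nipbl, which lies on chromosome 15 like Rad21, was 1.35-fold lower, close to Smc3 and Smc1a. Rad21 and Nipbl both lie among genes whose ratios were low as a group. Pds5b, on chromosome 5, does so too within 5 Mb, and less so within 10 Mb.

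Some of the sequences bear on how these counts can be read. The STAG proteins are alternative subunits made from related genes, as are the PDS5 proteins, so the longest stretch of identical coding bases within each pair is shown in capitals with 12 bases on either side (GENCODE M21 transcripts of GRCm38, coding strand, positions counted from the A of the start codon). The identical stretch is 23 bases in both pairs. It spans positions 1147 to 1169 of 3774 in Stag1 and 1138 to 1160 of 3804 in Stag2. In Pds5a it spans 2863 to 2885 of 3996, and in Pds5b 2836 to 2858 of 4338.
Stag1: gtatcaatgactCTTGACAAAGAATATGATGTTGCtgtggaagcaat
Stag2: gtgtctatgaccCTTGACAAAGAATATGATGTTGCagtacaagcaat
Pds5a: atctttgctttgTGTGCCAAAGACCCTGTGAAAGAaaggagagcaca
Pds5b: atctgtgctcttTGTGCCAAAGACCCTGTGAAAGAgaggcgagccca

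No stretch of 50 bases of the longest coding transcript of Rad21, Smc1a, Stag1, Stag2, Nipbl, Pds5b or Ctcf occurred in a transcript of any other annotated gene, on either strand. Of the 50-base stretches of Smc3, 1.56% also occurred in Gm11204, Gm29763 or AC154766.2, and 1.99% of those of Mau2 were repeats found in many transcripts. For Pds5a, 2.62% were antisense to Gm42727 or Gm42729. No source used here gives the read length or the strand setting of the counting, so those small parts of Smc3, Mau2 and Pds5a are the uncertain ones.

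Upstream sequence from RefSeq (GRCm38.p6) was matched by symbol for 7 of the 10 genes, all but Rad21, Nipbl and Stag2. The windows shown cover the range of ratios: Pds5b, the lowest gene with a window, Smc1a, in the middle, and Mau2, the highest (the outer of its 2 windows). Each is printed 5′ to 3′ on the strand of its gene and ends just before the first annotated transcript start inside or after it, which leaves 136 bases for Pds5b (chr5:150673577-150673712, plus strand) and 250 bases for Smc1a (chrX:152016178-152016427, plus strand) and Mau2 (chr8:70042735-70042984, minus strand). Capitals mark matches on either strand to the GC box GGGCGG or to the CCAAT box.
Pds5b: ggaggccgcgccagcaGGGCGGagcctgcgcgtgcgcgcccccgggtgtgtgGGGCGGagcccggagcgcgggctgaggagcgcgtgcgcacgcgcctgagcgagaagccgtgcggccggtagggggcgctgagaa
Smc1a: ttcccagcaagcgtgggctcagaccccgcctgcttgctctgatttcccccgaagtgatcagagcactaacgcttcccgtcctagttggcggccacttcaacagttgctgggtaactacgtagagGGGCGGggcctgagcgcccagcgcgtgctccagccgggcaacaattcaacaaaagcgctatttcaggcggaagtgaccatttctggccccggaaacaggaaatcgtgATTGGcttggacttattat
Mau2: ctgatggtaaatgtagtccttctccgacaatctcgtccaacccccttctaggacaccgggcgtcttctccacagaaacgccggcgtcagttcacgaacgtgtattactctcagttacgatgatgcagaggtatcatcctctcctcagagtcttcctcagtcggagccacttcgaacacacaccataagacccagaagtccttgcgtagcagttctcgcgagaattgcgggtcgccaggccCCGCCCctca

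The GC box occurred 2 times in the Pds5b window and 1 time each in those of Smc1a and Mau2. It was present in 6 of the 8 windows matched, all but that of Pds5a and the inner one of Mau2. Of all 32851 upstream windows of 250 bases in the table, 32.7% held at least 1. The windows of Pds5b (136 bases), Ctcf (186) and Pds5a (213) are shorter and Mau2 has 2, so these shares are not like for like. The windows of Smc1a and of Stag1, which is not printed, also held a CCAAT box, found in 33.8% of all windows. The ETS core CCGGAAG (6.91% of all windows) and the NRF1 core GCATGCG (3.02%) were searched on both strands and matched none of the 8. GC content was 79.4% in the Pds5b window, 56.8% in that of Smc1a and 54.8% in that of Mau2. The matches are letters only, and no binding was measured.

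The control library held 10571463 counts and the one labelled Pc4-OE 10194783. Levels are in CPM, counts scaled to a common library total, with edgeR's TMM factors (a trimmed mean over genes) applied, ratios are Pc4-OE over control, and the 95% intervals are exact intervals of the counts that cover counting error only. All 10 genes passed the minimum of 20 counts summed over both libraries, with 1878 to 10396 counts each.

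Rad21, the kleisin subunit that closes the ring, had 7264 counts (697.6 CPM) in control and 3132 counts (302.6 CPM) in the library labelled Pc4-OE. Its log2 ratio was -1.20 (interval -1.27 to -1.14), at the 2.52nd percentile of the 14213 genes measured. It was the only gene of the 10 to be at least 2-fold lower with an interval below 1, a rule met by 4.02% of measured genes. Among the 5173 genes with at least 1000 counts summed, 2.30% met it. None of the 10 was at least 2-fold higher, against 11.8% of measured genes.

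The ring arms had nearly equal ratios. Smc1a (chromosome X, 152016428 to 152061973, GRCm38) went from 2745 counts (263.6 CPM) in control to 2046 counts (197.7 CPM) in the library labelled Pc4-OE, a log2 ratio of -0.42 (interval -0.50 to -0.33). Smc3 (chromosome 19, 53600396 to 53645831) had 4253 counts (408.4 CPM) and 3095 counts (299.0 CPM), a log2 ratio of -0.45 (-0.52 to -0.38). The Smc1a to Smc3 ratio within a library changed by a factor of 1.02 between the libraries (interval 0.951 to 1.10), so a shift between the arms was not detectable at this depth.

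The alternative STAG subunits were close to a ratio of 1. Stag1 (chromosome 9, 100597709 to 100958544) had 1220 counts (117.2 CPM) in control and 1087 counts (105.0 CPM) in the library labelled Pc4-OE, a log2 ratio of -0.16 (interval -0.28 to -0.04). Stag2 (chromosome X, 42149297 to 42277186) had 1596 counts (153.3 CPM) and 1419 counts (137.1 CPM), a log2 ratio of -0.16 (-0.27 to -0.06). Their ratio to each other changed by a factor of 1.002 (0.898 to 1.12). With library totals in place of TMM the log2 ratio of Stag1 was -0.11, and its interval then included a ratio of 1.

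The loader subunits differed. Nipbl, the large loader subunit, had 3344 counts (321.1 CPM) in control and 2464 counts (238.1 CPM) in the library labelled Pc4-OE, a log2 ratio of -0.43 (interval -0.51 to -0.36). Mau2 (chromosome 8, 70014527 to 70042734), its partner, had 916 counts (88.0 CPM) and 962 counts (92.9 CPM), a log2 ratio of 0.08 (-0.05 to 0.21). The Nipbl to Mau2 ratio within a library was 0.702 times as high in the library labelled Pc4-OE as in control (0.631 to 0.780).

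The PDS5 genes, both on chromosome 5, had lower ratios than every other gene of the 10 except Rad21. Pds5a (chromosome 5, 65605719 to 65698236) had 2738 counts (262.9 CPM) in control and 1706 counts (164.8 CPM) in the library labelled Pc4-OE, a log2 ratio of -0.67 (interval -0.76 to -0.59). Pds5b (chromosome 5, 150673713 to 150810669) had 1441 counts (138.4 CPM) and 839 counts (81.1 CPM), a log2 ratio of -0.77 (-0.90 to -0.65). Their ratio to each other changed by a factor of 1.07 (0.963 to 1.19). Ctcf (chromosome 8, 105636474 to 105682922), which encodes the DNA-binding insulator protein, had 1821 counts (174.9 CPM) and 1458 counts (140.9 CPM), a log2 ratio of -0.31 (-0.41 to -0.21).

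With the fold lowered to 1.5, 3 of the 10 genes (Rad21, Pds5a and Pds5b) were lower and none was higher. Of all measured genes, 13.2% were at least 1.5-fold lower and 18.8% at least 1.5-fold higher, and of genes with at least 1000 counts 13.8% were lower. The interval lay wholly below 1 for 9 of the 10, against 33.1% of measured genes and 2586 of the 5173 (50%) with at least 1000 counts, and wholly above 1 for none, against 30.5% of genes with at least 1000 counts. The median log2 ratio of the 10 genes was -0.42, against -0.01 over all measured genes and -0.12 over those with at least 1000 counts. Without Rad21 and Nipbl the median of the other 8 was -0.36.

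**Figure D1:**
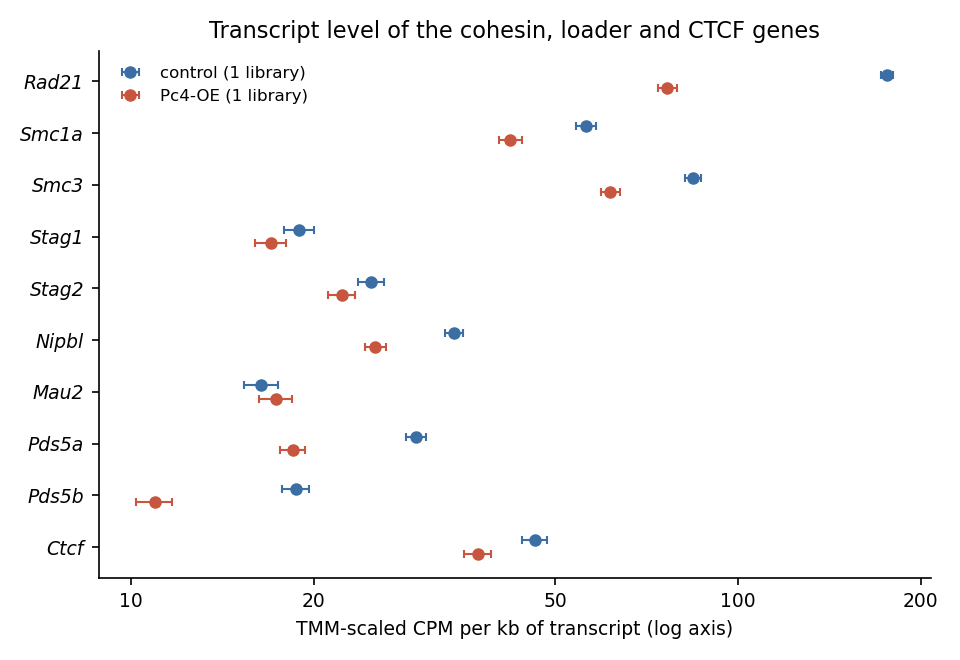
Level of each gene in the control (blue) and Pc4-OE (red) library, as TMM-scaled CPM per kb of its longest coding transcript on a log axis, with 95% counting intervals of 1 library each. Rad21 goes from 176.3 to 76.5 CPM per kb, and Mau2 alone is not lower in Pc4-OE.

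Levels were compared between genes per kb of the longest coding transcript, a rough scale since the isoforms used were not measured. In control the order ran Rad21 (176.3 CPM per kb), Smc3 (84.2), Smc1a (56.2), Ctcf (46.2), Nipbl (34.1), Pds5a (29.4), Stag2 (24.8), Stag1 (18.9), Pds5b (18.7) and Mau2 (16.4). Counting intervals of neighbours in that order overlapped only between Stag1 and Pds5b. In the library labelled Pc4-OE Rad21 still had the highest level per kb (76.5), followed by Smc3 (61.6), Smc1a (42.1), Ctcf (37.2), Nipbl (25.3) and Stag2 (22.2). The levels of Pds5a (18.4), Mau2 (17.3) and Stag1 (17.0) had overlapping intervals, and Pds5b was the lowest at 10.9. Rad21 was thus 2.09 times as abundant as Smc3 per kb in control and 1.24 times as abundant in the library labelled Pc4-OE.

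Rad21 was next set against each other gene through the ratio of their counts within a library, which does not depend on how the libraries are scaled. Against Smc3 this ratio was 0.592 times as high in the library labelled Pc4-OE as in control (interval 0.556 to 0.631), against Smc1a 0.578 times (0.539 to 0.621) and against Nipbl 0.585 times (0.547 to 0.626). It was lowest against Mau2, 0.411 times (0.371 to 0.454), and nearest to 1 against Pds5b, 0.741 times (0.673 to 0.815). All 9 intervals, which cover counting error only, lay below 1. Rad21 had the lowest ratio of the genes described, and its counts enter every comparison. The 9 values therefore restate that low ratio and are not separate support for it.

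Nipbl did not share that pattern. Its ratio to Smc1a changed by a factor of 0.989 (interval 0.914 to 1.07), to Smc3 by 1.01 (0.944 to 1.09) and to Ctcf by 0.920 (0.843 to 1.004), all including 1. It was lower relative to Stag1 (0.827, interval 0.750 to 0.912), Stag2 (0.829, 0.758 to 0.906) and Mau2, and higher relative to Pds5a (1.18, 1.09 to 1.28), Pds5b (1.27, 1.14 to 1.40) and Rad21 (1.71, 1.60 to 1.83).

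**Figure D2:**
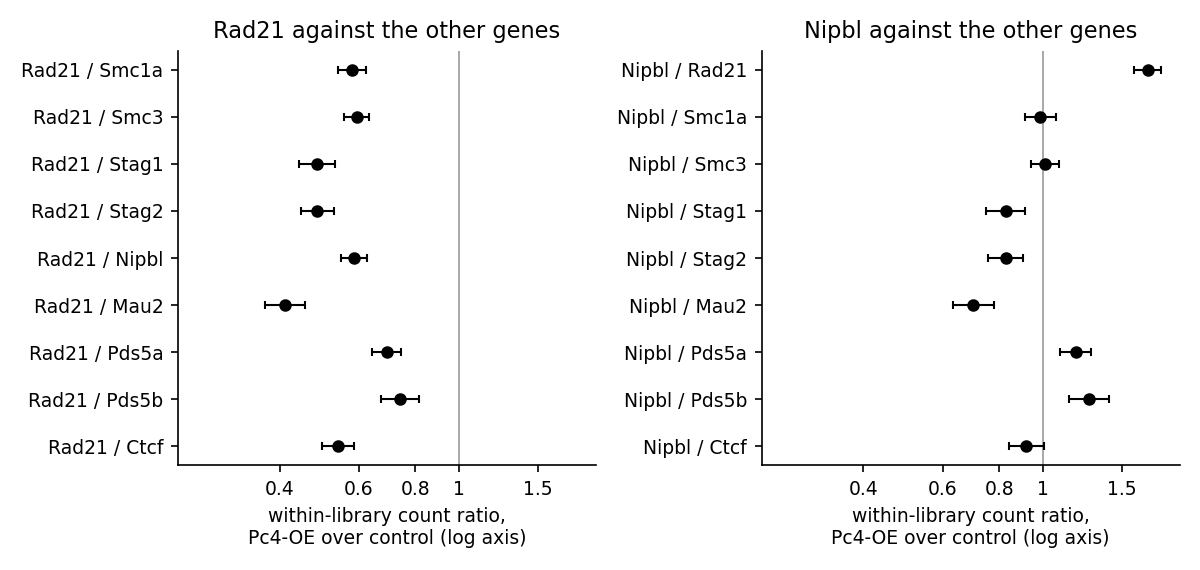
Change of the within-library count ratio of Rad21 (left) and Nipbl (right) to each of the other 9 genes, Pc4-OE over control, on a log axis, with exact 95% intervals for counting error. The Rad21 points all lie between 0.411 and 0.741, while the Nipbl points lie on both sides of 1.

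Because Rad21 and Nipbl are both on chromosome 15, each gene was also set beside the genes within 5 Mb of it that had a mean of at least 5 CPM. Rad21 (chromosome 15, 51962604 to 51993538, GRCm38) had 14 such genes. Of these, 12 had a ratio below 1 (against 50.7% of all measured genes). At least 2-fold lower were 4 (against 4.02%), and none was at least 2-fold higher (against 11.8%). Their median log2 ratio was -0.87 (quartiles -1.11 and -0.66), against -1.20 for Rad21, and 3 of the 14, Aard, Dscc1 and Trps1, were lower than Rad21. Of the genes next to it, Utp23, a ribosome biogenesis factor, had 417 and 218 counts (log2 ratio -0.93), Eif3h, a translation initiation factor subunit, 4332 and 2378 (-0.86), and the transcription factor Trps1 452 and 178 (-1.34). On the other side Aard had 233 and 33 counts (-2.81), Med30, a Mediator subunit, 450 and 250 (-0.84) and Ext1, a heparan sulfate synthesis enzyme, 1577 and 1095 (-0.52). All 6 flanking genes had intervals below 1. The shares over all measured genes use a lower bar, at least 20 counts summed. At that minimum Rad21 had 19 genes within 5 Mb, 14 of them with a ratio below 1. Of the 19, 5 were at least 2-fold lower and 2 at least 2-fold higher.

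Nipbl (chromosome 15, 8289824 to 8465315) had 35 genes within 5 Mb. Of these, 29 had a ratio below 1 (against 50.7% of all measured genes). At least 2-fold lower were 11 (against 4.02%), and 5 were at least 2-fold higher (against 11.8%). Their median log2 ratio was -0.68 (quartiles -1.07 and -0.32), so Nipbl, at -0.43, stood 0.25 above it, and 23 of the 35 had lower ratios than Nipbl. The nearest on one side were 2410089E03Rik (log2 ratio -0.57), Nup155, a nuclear pore subunit (-1.17), and Wdr70 (-0.98). On the other side stood the glutamate transporter gene Slc1a3 (-1.52), the mitochondrial NAD kinase gene Nadk2 (-0.47) and Skp2, which encodes a subunit of a ubiquitin ligase (-1.41). The 5 that were at least 2-fold higher, named after their values were seen, were Ghr, Ptger4, Dab2, Fyb and Osmr, with log2 ratios of 1.48 to 1.94. Sub1 itself is 1 of the 35, at 3.69 Mb from Nipbl. At the minimum of 20 counts summed, which the shares over all measured genes use, Nipbl had 46 genes within 5 Mb. Of these, 35 had a ratio below 1, 14 were at least 2-fold lower and 9 at least 2-fold higher.

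**Figure D3:**
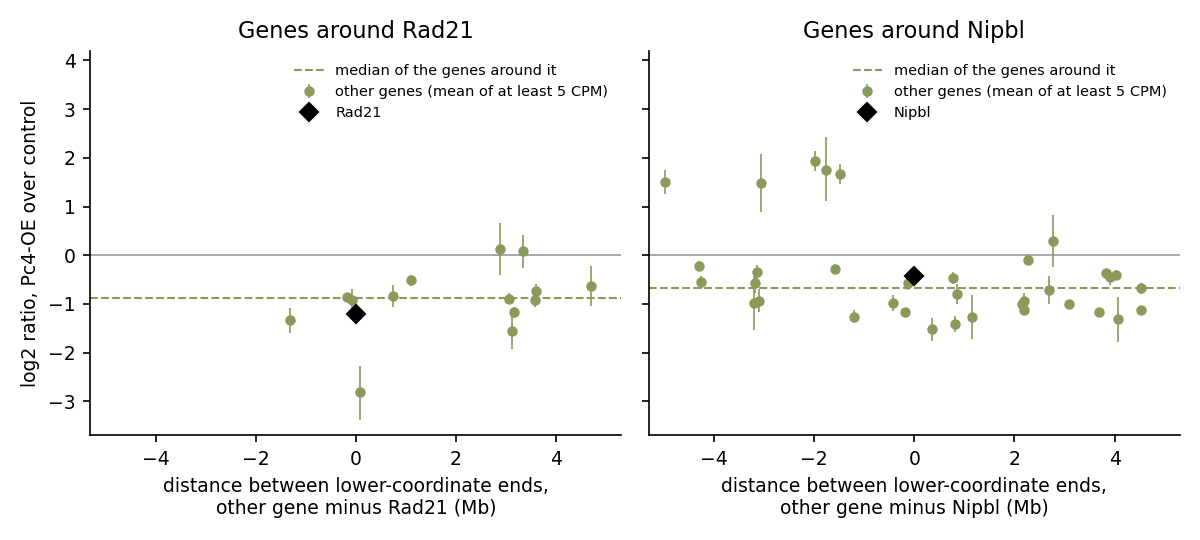
Log2 ratio (Pc4-OE over control) of genes within 5 Mb of Rad21 (left) and Nipbl (right) against the distance between their lower-coordinate ends, bars being 95% counting intervals and the dashed line the median of the other genes. Rad21 (diamond) lies below a median of -0.87 and Nipbl above a median of -0.68.

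The median of the surrounding genes lay between -0.19 and 0.11 for 6 of the other 8 genes. It was -0.09 around Smc1a (28 genes), -0.01 around Smc3 (23 genes), 0.11 around Stag2 (13 genes), -0.19 around Stag1 (48 genes), -0.08 around Mau2 (98 genes) and -0.13 around Ctcf (78 genes). Smc3 lay 0.44 and Smc1a 0.33 below the median of the genes around them. On chromosome 5 the median was -0.22 around Pds5a (27 genes), which lay 0.45 below it, and -0.61 around Pds5b (27 genes), which lay 0.16 below it. With a window of 10 Mb the median around Pds5b was -0.32 (75 genes), and Pds5b lay 0.45 below it. The median over all genes of that chromosome with a mean of at least 5 CPM was -0.32 (752 genes without the pair), against -0.13 on chromosome 15 (459 genes without Rad21 and Nipbl). What sets the regional medians was not tested.

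**Figure D4:**
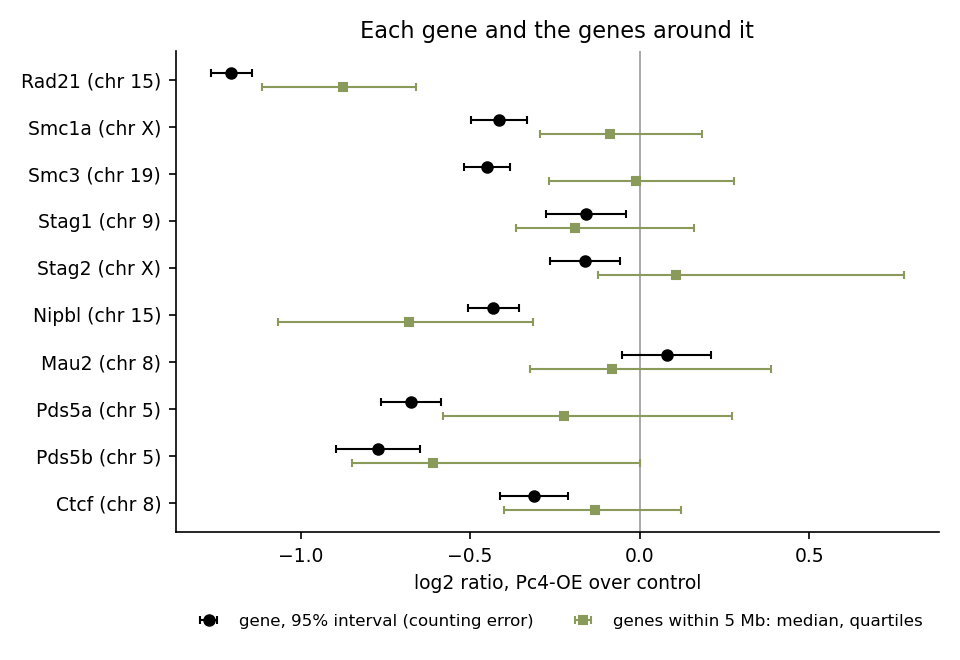
Log2 ratio of each gene with its 95% counting interval (black) beside the median and quartiles of the genes within 5 Mb of it (green). The green medians are lowest around Rad21, Nipbl and Pds5b, at -0.87, -0.68 and -0.61, that of Pds5b being -0.32 with a window of 10 Mb.

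Other genes of the pathway were counted from lists written with earlier results of these data known. Of 15 genes that regulate cohesin, 12 had a ratio below 1, 1 was at least 2-fold lower, none was higher and 14 were neither, with a median log2 ratio of -0.37. Over all measured genes, 50.7% had a ratio below 1 and 4.02% were at least 2-fold lower. At a fold of 1.5, 2 of the 15 were lower, Dscc1 and Gsg2, against 13.2% of measured genes. Dscc1, part of an alternative clamp loader that promotes cohesion, was the gene past 2-fold, with 277 and 93 counts (26.6 and 8.99 CPM) and a log2 ratio of -1.57 (interval -1.92 to -1.22), and it lies within 5 Mb of Rad21. Chtf18 of the same complex, on chromosome 17, had -0.55, Gsg2, the haspin kinase that protects cohesion at centromeres, -0.63, and Esco1, an acetyltransferase for SMC3, -0.58. Of genes named after their values were seen, Wapal, which encodes the ring-releasing factor WAPL, had 2996 and 3102 counts (log2 ratio 0.06, interval -0.01 to 0.13). Esco2, the S-phase acetyltransferase for SMC3, had 2688 and 3332 counts (0.32, 0.24 to 0.39).

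Of 8 condensin genes, whose products compact chromosomes in mitosis, all had a ratio below 1, as had 60.2% of genes with at least 1000 counts, and none met the 2-fold or the 1.5-fold rule (13.2% of measured genes were at least 1.5-fold lower). Their median log2 ratio was -0.30, with Ncapd2 at -0.52, Ncapg at -0.51, Smc2 at -0.49 and Ncapg2 at -0.32. Of 7 genes of the SMC5/6 complex, which acts in DNA repair, 5 had a ratio below 1, against 50.7% of measured genes. None met the 2-fold rule, while 1 of the 7 was at least 1.5-fold lower, against 13.2% of measured genes. That gene was Nsmce2, its SUMO ligase, which had 735 and 410 counts (log2 ratio -0.83). Smc6 had -0.39, Nsmce4a -0.31 and Ndnl2 -0.18, and the median was -0.18. Nsmce2 lies on chromosome 15 at 59374198, in the same part as Rad21. Of 4 cohesin genes best known from meiosis, 3 were measured and none met the 2-fold rule, while 1 was at least 1.5-fold higher, against 18.8% of measured genes. That gene was the kleisin Rec8, with 203 and 332 counts (0.72). Smc1b had 0.21 and Stag3 -0.18, and Rad21l had 1 and 2 counts.

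Of the genes listed for these complexes, 7 lie on chromosome 15, and they are given here by position, an order chosen after their values were seen. Nipbl, Rad21, Dscc1 and Nsmce2, which start between 8289824 and 59374198, had log2 ratios of -0.43, -1.20, -1.57 and -0.83. Smc1b, Ncaph2 and Espl1 (separase, the protease that cuts RAD21), which start between 85064689 and 102296254, had log2 ratios of 0.21, -0.14 and -0.35. The intervals of Nipbl (-0.51 to -0.36) and Espl1 (-0.42 to -0.27) overlapped.

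Of 10 genes for proteins that work with CTCF or at insulators and promoters, 5 had a ratio below 1, none was at least 2-fold lower and 1 was at least 2-fold higher, against 11.8% of measured genes. Their median log2 ratio was 0.00. The 1 higher gene, named after its value was seen, was Ctcfl, the germline paralog of Ctcf, on 7 and 18 counts (log2 ratio 1.37, interval 0.04 to 2.87). Vezf1 had 473 and 702 counts (0.58), Ldb1 0.17, Maz -0.18 and Patz1 -0.24.

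**Figure D5:**
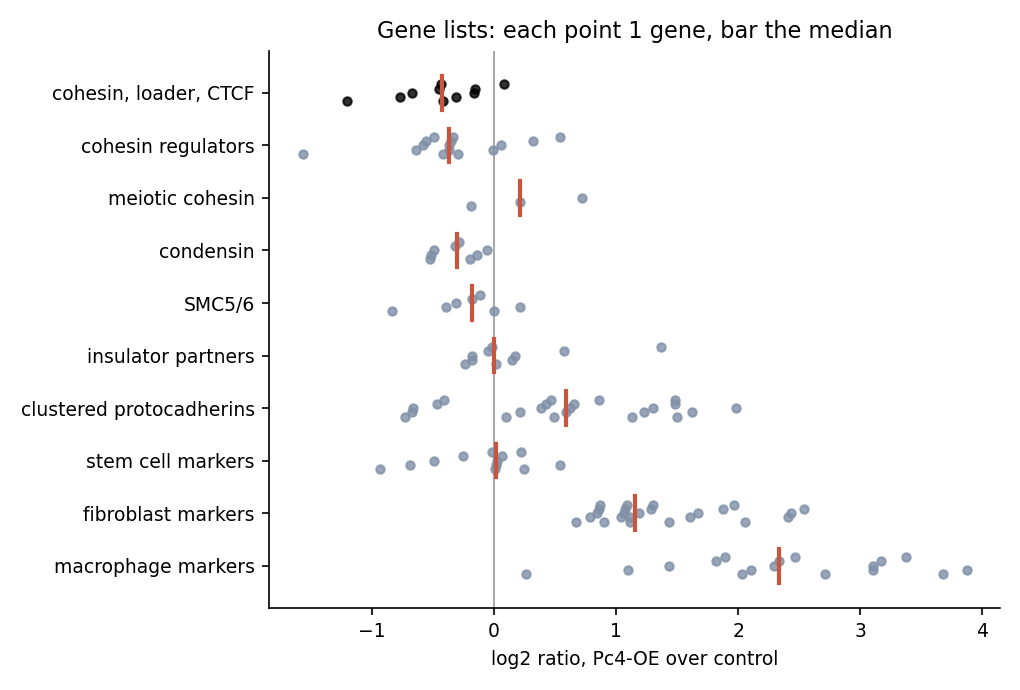
Log2 ratio (Pc4-OE over control) of every measured gene of 10 lists, 1 point per gene, with the list median as a bar. The cohesin, regulator and condensin medians are -0.42, -0.37 and -0.30, while fibroblast and macrophage markers lie to the right at 1.15 and 2.33.

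Markers of other cell types differed between the libraries as well. Over all measured genes, 50.7% had a ratio below 1 and 11.8% were at least 2-fold higher. All 24 fibroblast markers had a ratio above 1 and 18 passed 2-fold, their summed level going from 8865 to 21780 CPM, with Col1a1, the type I collagen chain, at 732.5 and 1536 CPM. Of 17 macrophage markers all had a ratio above 1 and 16 were at least 2-fold higher, from 243.1 to 783.6 CPM in sum, and no marker of either list was at 0. The 12 stem cell markers had a median log2 ratio of 0.02, 7 of them above and 5 below a ratio of 1, with Pou5f1 at -0.93, Tdgf1 at -0.69, Sox2 at -0.02 and Nanog at 0.24, so the labelled cell type was detected in both libraries. Of 6 measured trophoblast markers 4, and of 6 measured endoderm markers 3, were at least 2-fold higher and none was lower, against 11.8% of measured genes higher. Of those 3, Pdgfra is also counted among the fibroblast markers and Dab2 lies within 5 Mb of Nipbl. The other, Gata4, had 23 and 46 counts (log2 ratio 1.01, interval 0.26 to 1.80). It fell below 2-fold with TMM without chromosomes 5 and 15 (0.99) and with a pseudocount of 0.5 CPM (0.87). Fewer cells of a type and less RNA per cell cannot be told apart in such bulk libraries, and the part of these other cells in the ratios of the cohesin genes was not tested. The within-library ratios of Rad21 to Smc3 and to Smc1a, 0.592 and 0.578 times as high in the library labelled Pc4-OE, are free of library scaling but not of such mixing.

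The genes whose pair of levels was most like that of Rad21, by the Euclidean distance of log2 CPM over the 2 libraries, were Fasn (distance 0.069), Jarid2 (0.14) and Eif3b (0.21), on chromosomes 11, 13 and 5. Nearest to Nipbl were Smc2 (0.041), Zfp568 (0.041) and Phb2 (0.049), on chromosomes 4, 7 and 6. With 2 libraries this says only that their levels were alike in both.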

How the data were processed

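Poly(A) RNA of 1 control and 1 Pc4-OE library of mouse embryonic stem cells was made into stranded TruSeq libraries, per the labels' protocols. The authors deposited whole-number read counts per gene in 1 table. Per the submitters' processing notes, STAR 2.4.1c and featureCounts were used with mm10. No source used here gives the annotation, the strand setting or the handling of reads with several matches. Depth was 10571463 and 10194783 counts.

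From these counts, TMM factors were computed over the whole table (edgeR 4.0.16, R 4.3.3), and ratios without a pseudocount were taken over the 14213 genes with at least 20 counts summed. Exact 95% intervals (binomial for ratios of a gene, conditional for ratios of gene pairs, Poisson for levels, from scipy 1.17.1) cover counting error only. They can be too narrow even for that, because reads amplified by PCR need not be separate molecules. No p-value was computed, because there was 1 library per group. The calculation of ratios and intervals was run on simulated Poisson counts, the model that the intervals assume. That run checks the code and not how well the model describes these libraries. A gene was counted at a fold of 2 or 1.5 when its interval also excluded 1. Positions came from RefSeq on GRCm38, of which mm10 is a copy, for 23977 of the rows. Alternatives were library totals, DESeq2 1.42.0 size factors, TMM without chromosomes 5 and 15, a pseudocount of 0.5 CPM, other count minimums and other windows.

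The genes, lists and rules were chosen with earlier results of these data known. Named genes are the 10, Sub1, Pou5f1, Sox2, Nanog, Col1a1 and up to 4 measured genes of each list. Those 4 are the ones whose interval bound nearest to 1 lay farthest from 1. Also named are the 3 nearest genes on either side of Rad21 and Nipbl and the 3 genes most like each. Others are marked as named after their values were seen.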

Additional observations from a re-analysis of the deposited data

How the results depend on the processing

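No paired analysis was possible because each group has 1 library, and for the same reason no library could be left out. Over the 4 other scalings and pseudocounts, the log2 ratio of Rad21 ran from -1.23 to -1.16, that of Nipbl from -0.45 to -0.39 and the median of the 10 genes from -0.44 to -0.38. The number of genes among the 10 with a ratio below 1 was 9 under each of 3 other scalings, chosen after seeing the data, and the number with an interval below 1 was 8 with library totals. At a fold of 2 in place of 1.5, 1 of the 10 was lower instead of 3. With a minimum of 100 counts, 366 genes of the whole table were at least 2-fold lower and 1095 higher. With the minimum of 20 counts these were 572 and 1673 of 14213 genes. Fewer genes pass the higher minimum, so the 2 pairs of counts do not compare shares. The median around Smc3 became 0.0087 when all genes with at least 20 counts were used, and that around Stag1 became -0.39 within 2 Mb. Within 10 Mb the median around Pds5b became -0.32 and that around Pds5a -0.14. Over windows of 2 and 10 Mb the median around Rad21 was -0.89 and -0.83, and that around Nipbl -0.80 and -0.63. With a minimum of 20 counts in the 5 Mb window these were -0.84 and -0.57.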

Other observations

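The clustered protocadherin genes, cell surface proteins whose promoter choice is known to need CTCF and cohesin, were mostly near the limit of counting. Of 59 in the table, 23 were measured, with a median log2 ratio of 0.59. Of these, 5 had a ratio below 1, against 50.7% of all measured genes, 7 were at least 2-fold higher, against 11.8%, and none was at least 2-fold lower, against 4.02%. The highest level in both libraries was that of Pcdhgc3, with 458 and 1291 counts (log2 ratio 1.504, interval 1.35 to 1.66). Pcdhgc5 had 45 and 177 counts (1.98). Pcdhgb2 had 34 and 104 counts (1.62) and Pcdhgb4 18 and 50 (1.48). Nearly all of the 23, and all 7 of the higher ones, belong to the gamma cluster, a single locus. Genes of the gamma cluster share their last exons, so how the authors' counting split their reads is uncertain. Their values need not be separate measurements, and the counts above describe that locus more than the whole family. Fibroblast markers had a median log2 ratio of 1.15, and what part such cells have in these values was not tested.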
